A study of Mus musculus with 6 samples.

Results

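The nuclear-encoded genes of oxidative phosphorylation (OXPHOS) were examined in RNA that had been pulled down from mouse left ventricles with an anti-EZH2 or a normal IgG antibody. Members were taken by name, from rows whose gene symbol begins with Nduf, Uqcr, Atp5 or Cox4 to Cox8 or is Sdha, Sdhb, Sdhc or Sdhd, leaving out symbols that contain -ps. This gave 93 rows with 92 gene symbols of the 46165 rows in the table of each library. In all, 88 members passed a minimum of 1 FPKM on the mean of the 6 libraries, as did 8507 of the 46072 genes. FPKM gives the fragments of a transcript relative to its length and to all fragments mapped in that library. The 88 held 7 core, 29 accessory and 7 assembly genes of complex I. They also held 4 genes of complex II, 8 of complex III, 17 of complex IV, 15 of complex V and Atp5sl. RefSeq lists Atp5sl as Dmac2, and it was kept apart from these groups. The 7 Ndufaf genes code for assembly factors and not for subunits, and they were kept because the name rule takes them.

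RNA immunoprecipitation followed by sequencing (RIP-seq) reads the RNAs that come down with a protein, here EZH2, the methyltransferase of Polycomb repressive complex 2. The groups were Sham, angiotensin II (AngII) for 4 h and AngII for 24 h, with 2 mice a group, an anti-EZH2 and an IgG library for each, and 2 RIP products mixed into each library. The mice were males aged 10 weeks. Those of the AngII groups carried an osmotic minipump delivering 1 mg/kg/min. The Sham mice are called untreated in the labels, while the methods of the study give them saline. The strain is given as C57BL/6, except that the labels of the AngII 4 h and AngII 24 h anti-EZH2 libraries read C57BL/7 and C57BL/8. With 1 library for each group and antibody there were no replicates, and the anti-EZH2 and IgG libraries of a group came from the same mice. The libraries had between 15127 and 17821 genes above 0. Markers of ventricular cardiomyocytes (10 of 10 found, Myh6 and Tnnt2 among them) summed to between 5553 and 9761 FPKM.

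OXPHOS is the last stage of aerobic ATP production. Complexes I and II pass electrons from NADH and succinate to ubiquinone, complex III hands them to cytochrome c, and complex IV gives them to oxygen, while complex V makes ATP from the proton gradient. All but complex II combine subunits coded in the nucleus with subunits coded in mitochondrial DNA. Cardiac muscle is rich in mitochondria, and several complex IV subunits have a form made in heart and skeletal muscle beside one made in most tissues.

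OXPHOS mRNAs were among the most abundant in every library, with either antibody. Of the 100 protein-coding genes with the highest FPKM, between 29 and 35 were members, whereas members made up 1.28% of the protein-coding genes tested. In the Sham IgG library the median member had 82.0 FPKM, and the median of all tested genes was 2.76 FPKM. The order of the complexes in that library was 164 FPKM for complex V, 157 FPKM for complex IV, 115 FPKM for complex III, 77.4 FPKM for complex II, 68.5 FPKM for the accessory and 43.4 FPKM for the core subunits of complex I, all as medians. The spread within a complex was wide, from 0 to 331 FPKM in complex IV and from 35.3 to 498 FPKM in complex V, so that neighbouring complexes overlapped. The assembly factors stood apart at a median of 2.99 FPKM. The 13 mRNAs coded in mitochondrial DNA had a median of 1517 FPKM in the same library.

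The highest member was Atp5b, the catalytic beta subunit of ATP synthase. With IgG it had 498 FPKM in Sham, 738 FPKM at 4 h and 835 FPKM at 24 h, and with anti-EZH2 it had 372, 608 and 372 FPKM. By the mean of the IgG libraries it was followed by Cox6a2, Cox7a1 and Cox8b, the heart and skeletal muscle forms of 3 complex IV subunits, and by Cox4i1, the common form of the subunit it belongs to. Cox7a1 had 331, 408 and 357 FPKM with IgG in Sham, 4 h and 24 h and 244, 342 and 192 FPKM with anti-EZH2. Subunits with the redox centres of complexes I to III were lower. Ndufv1, which binds NADH, ranged from 38.1 to 91.4 FPKM over the 6 libraries, Sdha, the flavoprotein of complex II, from 55.2 to 115 FPKM, and Uqcrfs1, the Rieske iron-sulfur protein of complex III, from 38.5 to 80.5 FPKM. Across the 88 members, Spearman's rho of FPKM between any pair of libraries was between 0.967 and 0.988, as a description of genes that are not independent of each other.

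**Figure D1:**
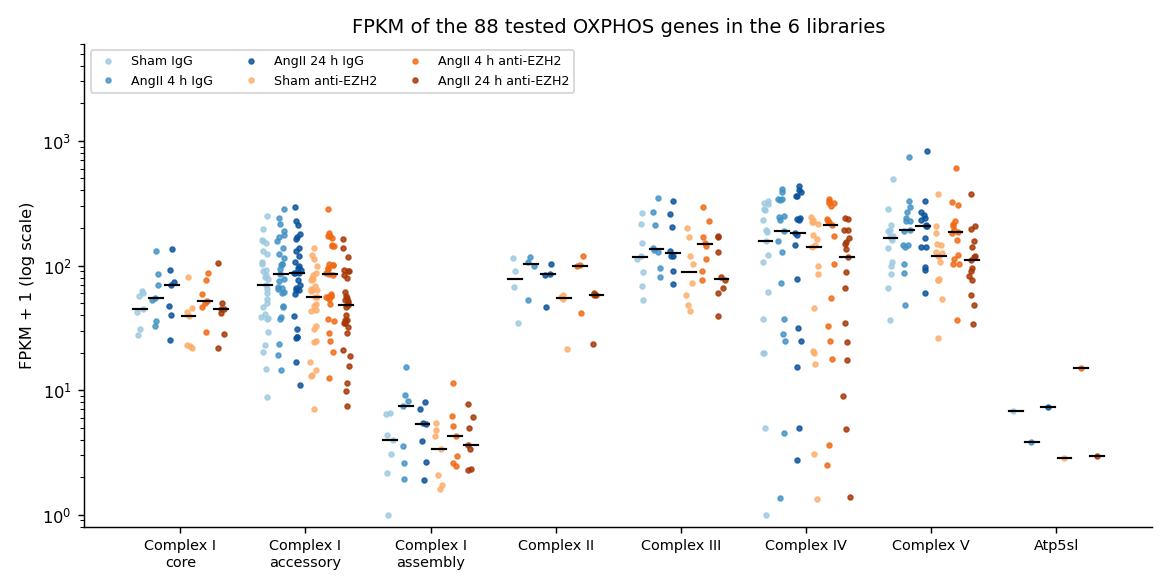
FPKM + 1 on a log scale (y axis) of the 88 tested members, grouped by complex (x axis), with 1 point for each gene in each of the 6 libraries and a black bar at the median of the group. The assembly factors of complex I lie below most subunits. The 2 lowest medians of complexes II to V and of the accessory subunits are those of the Sham and 24 h anti-EZH2 libraries.

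The muscle forms of the paralogous subunits held most of the FPKM of their sets in all 6 libraries. Cox6a2 made up between 92.4% and 96.7% of the summed FPKM of Cox6a1 and Cox6a2. Cox8b made up between 88.5% and 94.8% of its set, and Cox7a1 between 76.9% and 81.4% of the sum of Cox7a1, Cox7a2 and Cox7a2l. Cox4i1 held at least 99.0%, Cox6b1 at least 99.4% and Ndufa4 at least 97.4% of their sets, the small rest being Cox4i2, Cox6b2 and Ndufa4l2. Atp5g1, Atp5g2 and Atp5g3, which code for the same mature c subunit of ATP synthase, held between 52.6% and 56.1%, between 6.32% and 9.37% and between 36.9% and 39.9%. As ratios the pairs varied more, with Cox6a2 between 12.2 and 29.5 times Cox6a1, Cox8b between 7.69 and 18.2 times Cox8a, and Cox7a1 between 4.64 and 6.34 times Cox7a2. The 24 h IgG library had the highest ratio for Cox8b and the lowest for Cox7a1. The testis forms Cox6b2, Cox7b2 and Cox8c did not reach the minimum, Cox8c being listed at 0 in all 6 libraries, and neither did Atp5s nor a second row of Uqcrc1 on a patch sequence, also listed at 0.

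**Figure D2:**
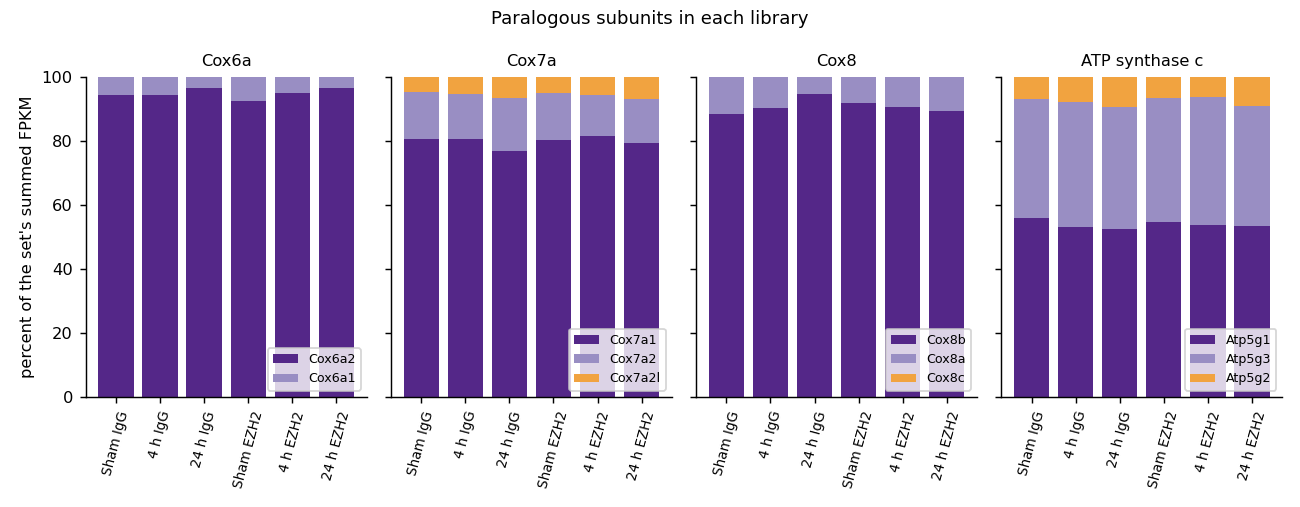
Percent of the summed FPKM of a set of paralogous subunits (y axis) held by each gene in each of the 6 libraries (x axis), as stacked bars from 0 to 100. Cox6a2, Cox7a1 and Cox8b fill between 76.9% and 96.7% of their bars in every library.

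The starts of the members' genes were searched for letters known from promoters of nuclear-encoded mitochondrial genes. Whether such letters have a part in the differences between libraries was not tested. RefSeq windows of the mouse build GRCm38.p6, from 250 bases before to 50 bases after a start, were matched for 73 of the 88 members (71 by symbol, 2 by synonym), with 79 windows in all, and set beside 5218 other tested protein-coding genes. The NRF1 motif, searched as GCGC, any 1 base and TGCGC, stood on either strand in 19 of the 73 members (26.0%) and in 13.2% of the other genes. The YY1 letters AAGATGGCG stood in 8 members and in 4.27% of the other genes, the estrogen-related receptor letters TCAAGGTCA in 2 members and 0.307%, and the ETS letters CCGGAAG in 17 members (23.3%) and 21.7%. At least 1 of these 4 motifs was found in 38 of the 73 members (52.1%) and in 34.7% of the other genes. Among all 32851 RefSeq windows of this length the shares of the 4 were 4.6026%, 1.40%, 0.423% and 8.86% in the order NRF1, YY1, receptor and ETS. Of 4 general promoter motifs, the SP1 letters GGGCGGG were less frequent in the members, with 32.9% against 54.4%, while CCAAT was found in 42.5% and 43.7%, the CRE letters TGACGTCA in 5.48% and 3.60% and the TATA letters TATAAAA in 4.11% and 2.91%. In all windows these 4 had 25.6%, 37.4%, 1.79% and 5.48%. Of the complex IV pairs, the windows of Cox6a1 and Cox8a held at least 1 of the first 4 motifs, and those of Cox7a1, Cox7a2 and Cox8b held none. A match is a run of letters, and binding was not tested.

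The 250 bases before the start are given for 4 members, from RefSeq, 5′ to 3′ on the strand of the gene, with matches to the first 4 motifs in capitals. Matches to the general promoter motifs are not marked. Sdha and Ndufb4, an accessory subunit of complex I, each hold the NRF1 letters 3 times, Atp5g3 holds the receptor letters once, and Cox8b holds none of the first 4 motifs. All 4 genes lie on the minus strand, at chr13:74350241-74350490 (Sdha), chr16:37654369-37654618 (Ndufb4), chr2:73911327-73911576 (Atp5g3) and chr7:140900447-140900696 (Cox8b).
Sdha: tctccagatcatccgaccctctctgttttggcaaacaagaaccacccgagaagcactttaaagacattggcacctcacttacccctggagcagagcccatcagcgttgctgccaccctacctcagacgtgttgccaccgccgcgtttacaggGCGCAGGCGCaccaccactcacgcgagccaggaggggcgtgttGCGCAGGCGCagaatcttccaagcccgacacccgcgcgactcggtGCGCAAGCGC
Ndufb4: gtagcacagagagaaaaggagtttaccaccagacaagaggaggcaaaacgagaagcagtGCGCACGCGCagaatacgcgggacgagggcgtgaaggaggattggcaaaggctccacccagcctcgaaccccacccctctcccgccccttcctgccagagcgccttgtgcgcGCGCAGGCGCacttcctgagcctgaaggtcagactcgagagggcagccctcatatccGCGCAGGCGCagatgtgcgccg
Atp5g3: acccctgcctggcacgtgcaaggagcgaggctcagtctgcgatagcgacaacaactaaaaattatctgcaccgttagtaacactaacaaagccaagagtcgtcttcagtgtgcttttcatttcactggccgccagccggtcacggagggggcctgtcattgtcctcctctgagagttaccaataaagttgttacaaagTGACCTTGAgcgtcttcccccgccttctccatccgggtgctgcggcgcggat
Cox8b: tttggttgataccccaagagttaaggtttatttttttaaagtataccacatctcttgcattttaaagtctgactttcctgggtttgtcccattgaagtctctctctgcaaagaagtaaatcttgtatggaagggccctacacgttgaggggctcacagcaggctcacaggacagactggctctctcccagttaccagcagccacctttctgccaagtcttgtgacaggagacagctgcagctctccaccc
All of the marked matches are read on the strand opposite to the gene, so the capitals are the reverse complement of the letters searched. In Sdha the matches begin 98, 55 and 10 bases before the start, in Ndufb4 191, 79 and 22 bases before it, and in Atp5g3 52 bases before it.

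The first comparison asked whether OXPHOS mRNAs came down with EZH2 more than with IgG. In the values of single libraries the median member was below IgG in every group, and most members lay below it. The summed FPKM of the 24 h anti-EZH2 library was 1.07e+06, against 2.11e+06 in its IgG library. As a share of the summed FPKM, the members were higher with anti-EZH2 at 4 h (0.624% against 0.589%) and at 24 h (0.620% against 0.558%). In Sham their share was lower with anti-EZH2, with 0.356% against 0.429%. As log2(FPKM + 1), the median difference of the 88 members (anti-EZH2 minus IgG) was -0.42 in Sham, -0.14 at 4 h and -0.78 at 24 h, and 76, 69 and 82 of the 88 were below 0. Over all 8507 tested genes the medians were -0.17, -0.06 and -0.44, and 59.6%, 54.8% and 72.9% of the genes were below 0. The members were also less scattered than genes at large, with an interquartile range of 0.34, 0.26 and 0.38 against 0.85, 0.72 and 0.91. Among the 878 other protein-coding genes with a mean of at least 10 FPKM the medians were -0.35, -0.12 and -0.62, and the interquartile ranges were 0.56, 0.43 and 0.57. All 3 anti-EZH2 minus IgG differences were below 0 in 58 of the 88 members (65.9%), against 28.5% of all tested genes. All 3 were above 0 in 1 member, Ndufaf3, an assembly factor of complex I, against 5.90% of all tested genes. Other sets lay below IgG as well. In Sham the median difference was -0.33 for cardiomyocyte markers, -0.29 for endothelial markers, -0.37 for cytosolic ribosomal proteins, -0.28 for fatty acid oxidation and -0.35 for the tricarboxylic acid cycle. At 24 h the same sets had -0.61, -0.83, -0.76, -0.72 and -0.58. Their part in the members' differences was not tested.

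Few members passed 2-fold on this scale. In Sham 0 members were higher, against 8.98% of all tested genes, and 6 were lower, against 10.5%. The 6 were Ndufa9, Ndufb3 and Ndufb5, which are accessory subunits of complex I, Sdha, Ndufaf5 and Atp5sl. Sdha, for example, had 114 FPKM with IgG and 55.2 FPKM with anti-EZH2, and Ndufb5 had 88.6 and 42.7 FPKM. At 4 h 2 members were higher, against 7.77% of all genes, and 1 was lower, against 6.36%. These were Atp5sl and Cox4i2, a form of the Cox4 subunit best known from lung, and the assembly factor Ndufaf1. All 3 are low beside most members: Cox4i2 had 0.362 FPKM with IgG and 2.63 FPKM with anti-EZH2, and Ndufaf1 had 14.3 and 4.17 FPKM.

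At 24 h 16 members were lower in the anti-EZH2 library, against 21.7% of all tested genes, and 0 were higher, against 5.35%. They came from complex I (Ndufa1, Ndufb3, Ndufb10, Ndufs5), complex IV (Cox4i2, Cox5b, Cox7a2, Cox7b, Cox8b), complex V (Atp5b, Atp5e, Atp5j, Atp5k), the assembly factors (Ndufaf2, Ndufaf6) and Atp5sl. Ndufa1, an accessory subunit in the membrane arm of complex I, had 97.9 FPKM with IgG and 33.8 FPKM with anti-EZH2. Cox7b, a small complex IV subunit, had 175 and 65.4 FPKM. The share of 16 in 88 lay near that of all genes, and of the abundant protein-coding genes 19.5% were lower by more than 2-fold, against 12 of the 77 members with a mean of at least 10 FPKM. By complex the medians at 24 h ran from -0.52 for the core subunits of complex I to -0.86 for its accessory subunits, with -0.67 for complex II, -0.73 for complex III, -0.78 for complex IV and -0.82 for complex V. The assembly factors had a median of 0.13. The 24 h anti-EZH2 library was unlike the others in its mitochondrial share. It had 31.3% of its summed FPKM in genes of mitochondrial DNA, against between 6.72% and 13.9% in the other 5. Most of this was not mRNA, as mitochondrial mRNAs held 2.09% of its summed FPKM, against between 1.04% and 1.94% in the other 5. The part of this mitochondrial share in the differences was not tested.

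**Figure D3:**
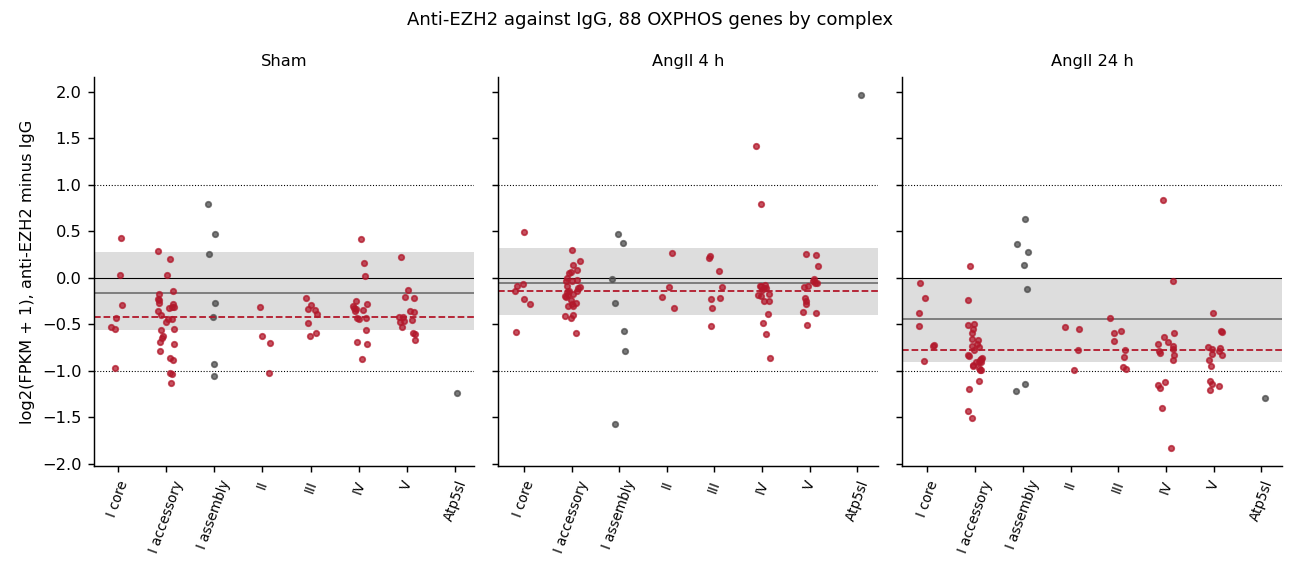
Anti-EZH2 minus IgG in log2(FPKM + 1) (y axis) of the 88 members in Sham, AngII 4 h and AngII 24 h, by complex (x axis), 1 point a gene, with assembly factors and Atp5sl in dark grey. The dashed line is the median of the members (-0.42, -0.14 and -0.78), the grey line and band are the median and middle 50% of all 8507 tested genes, and dotted lines mark 2-fold.

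The antibody effect was tested with the 3 groups as blocks by limma on log2(FPKM + 1), adjusted by Benjamini-Hochberg over all 8507 genes. No member passed an adjusted p of 0.05 (0 of 88), and 1 of all genes did (0.0118%). The median of the members' estimates was -0.44 and that of all genes -0.25, with a median standard error of 0.30 for a member. At an unadjusted p under 0.05, 2 members were lower, against 4.71% of all genes, and 0 were higher, where 7.29% of all genes passed in either direction. Ndufb4 had 21.9, 36.2 and 29.8 FPKM with IgG in Sham, 4 h and 24 h and 12.3, 23.6 and 14.7 FPKM with anti-EZH2, a limma estimate of -0.79 with a standard error of 0.25 and an adjusted p of 0.656. Ndufa9 had 35.9, 46.4 and 38.4 FPKM with IgG and 15.8, 34.7 and 20.1 FPKM with anti-EZH2, a limma estimate of -0.81 with a standard error of 0.28 and the same adjusted p of 0.656. For both genes each anti-EZH2 library was below the IgG library of its group. Groups are the only replication in this test. Its error therefore rests on the spread of the anti-EZH2 minus IgG difference between groups, which includes any change of that difference with AngII. For each gene limma draws this spread toward that of all tested genes at a similar level. The error of a member is thus not its own spread alone, and it depends on which genes are fitted.

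The second comparison set AngII beside Sham within each antibody. It has no test, because each side is 1 library, and the 4 h and 24 h differences share the Sham library. In the IgG libraries, which serve as the background of the pull-down, 79 of the 88 members were above Sham at 4 h and 75 at 24 h, with median differences of 0.34 and 0.33, or 1.26-fold at both times. The medians of all tested genes were 0.14 and 0.16, and 58.5% and 59.9% of them were above Sham. In the anti-EZH2 libraries 85 members were above Sham at 4 h, against 65.7% of all genes. Their median was 0.63 or 1.55-fold, against 0.26 for all genes. At 24 h in the anti-EZH2 libraries the members were split, 46 above and 42 below, against 44.7% and 53.4% of all genes. Their median was 0.02, against -0.06 for all genes. From 4 h to 24 h the medians were -0.05 with IgG and -0.70 with anti-EZH2, where all genes had 0.01 and -0.36. Abundant genes at large moved the same way at 4 h. For the 878 other protein-coding genes with a mean of at least 10 FPKM, the medians from Sham were 0.27 and 0.26 with IgG at 4 h and 24 h. With anti-EZH2 they were 0.48 and -0.03. The 77 members at that level had 0.32 and 0.34, and 0.63 and -0.004. From 4 h to 24 h with anti-EZH2 the abundant genes had -0.51 and these members -0.70.

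Past 2-fold, 4 members were higher than Sham with IgG at 4 h, against 11.1% of all genes, and 4 at 24 h, against 13.1%, and 0 were lower at either time, against 7.22% and 6.12%. Among them were the assembly factors Ndufaf1, Ndufaf2 and Ndufaf3 at 4 h, and Ndufaf2, Ndufaf6 and Cox4i2 at 24 h, none of which passed 14.3 FPKM in any library. Ndufaf2 and Cox4i2 are listed at 0 in Sham IgG, and no fold is given for them.

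In the anti-EZH2 libraries 9 members were higher than Sham by more than 2-fold at 4 h, against 12.2% of all genes, and 0 were lower, against 6.49%. They were Ndufa5, Ndufa9, Ndufb6, Ndufs1, Ndufs3, Sdhc, Ndufaf3, Cox4i2 and Atp5sl. Ndufs3, a core subunit of complex I, had 20.6 FPKM in Sham, 48.8 FPKM at 4 h and 44.0 FPKM at 24 h with anti-EZH2, and 41.4, 51.9 and 45.9 FPKM with IgG, so that the Sham anti-EZH2 library was the lowest of the 6 for this gene. Ndufs1, the large iron-sulfur subunit of complex I, had 21.9, 45.3 and 27.0 FPKM with anti-EZH2 and 30.0, 31.8 and 39.2 FPKM with IgG. By complex, the median at 4 h was 0.93 for the 4 genes of complex II, 0.70 for the accessory subunits of complex I, 0.69 for complex III, 0.64 for complex V, 0.50 for complex IV and 0.41 for the core subunits of complex I. With IgG the medians of the accessory and core subunits of complex I at 4 h lay close together, at 0.35 and 0.37.

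At 24 h with anti-EZH2, 2 members were higher than Sham, against 7.17% of all genes, and 2 were lower, against 14.1%. Ndufs3 and Ndufaf1 were higher, and Cox7b and Cox6a1 were lower. Cox7b had 175 FPKM in Sham anti-EZH2, 221 FPKM at 4 h and 65.4 FPKM at 24 h, while its IgG libraries had 157, 127 and 175 FPKM. Cox6a1, the common form of its subunit, had 7.94 FPKM at 24 h and 19.0 FPKM in Sham with anti-EZH2. From 4 h to 24 h 10 members were lower with anti-EZH2, against 17.7% of all genes, and 0 were higher, against 4.48%. With IgG, 2 were higher and 2 lower over the same interval, against 8.82% and 6.95%, all of them Cox4i2 or assembly factors.

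**Figure D4:**
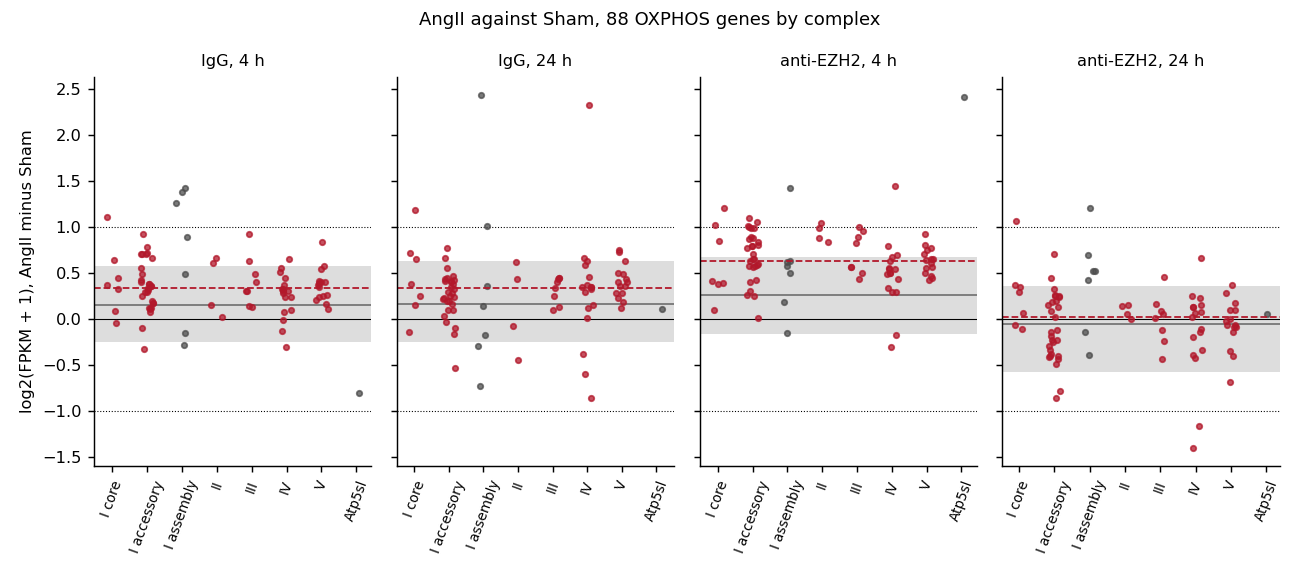
AngII minus Sham in log2(FPKM + 1) (y axis) of the 88 members for each antibody and time, by complex (x axis), 1 point a gene, with assembly factors and Atp5sl in dark grey. The dashed line is the median of the members (0.34, 0.33, 0.63 and 0.02), the grey line and band are the median and middle 50% of all tested genes, and dotted lines mark 2-fold.

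The genes that feed OXPHOS and the markers of cardiomyocytes lay on the same side of Sham as the members at 4 h. With IgG the median difference from Sham was 0.54 for 14 genes of the tricarboxylic acid cycle, 0.43 for 19 genes of fatty acid oxidation and 0.43 for 10 cardiomyocyte markers, and with anti-EZH2 at 4 h it was 0.71, 0.81 and 0.66. Endothelial markers (5 of 5 found) had -0.50 with IgG at 4 h and -0.28 with anti-EZH2, fibroblast markers (6 of 6 found) -0.63 and -0.10, and their sums ran from 14.6 to 37.9 FPKM and from 49.4 to 73.7 FPKM over the 6 libraries. Erythroid markers (5 of 5 found) had -0.48 with IgG and -0.25 with anti-EZH2 at 4 h, and 0.61 and 0.24 at 24 h. The 90 tested genes of cytosolic ribosomal proteins had 0.05 with IgG at 4 h and 0.25 with anti-EZH2. Of 4 atrial markers, Myl7 and Myl4 were at 14.3 and 9.50 FPKM in Sham IgG and at 12.2 and 6.57 FPKM in Sham anti-EZH2, and under 1 FPKM in the 4 AngII libraries, while Sln and Bmp10 were at 0 in all. In a bulk sample, fewer cells of a type and less RNA per cell cannot be told apart, and the part of these markers in the differences from Sham was not tested. Of 6 adipocyte markers Ucp1, Plin1 and Lep were at 0 in all 6 libraries, Adipoq and Cidec were above 0 only in Sham anti-EZH2, at 0.521 and 0.234 FPKM, and Cidea had between 0.435 and 3.12 FPKM.

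The 13 mRNAs of mitochondrial DNA, which code for the partner subunits of complexes I, III, IV and V, did not lie with the nuclear members in every comparison. Their median was 0.74 with IgG at 4 h and 0.38 at 24 h against Sham, beside 0.34 and 0.33 for the nuclear genes, and 0.44 and -0.17 with anti-EZH2. Anti-EZH2 minus IgG was 0.04 in Sham, -0.28 at 4 h and -0.45 at 24 h. Among transcriptional regulators of mitochondrial genes (14 of 17 tested), Ppargc1a, the coactivator PGC-1alpha, had 4.01, 15.2 and 5.44 FPKM with IgG in Sham, 4 h and 24 h and 4.27, 10.7 and 9.01 FPKM with anti-EZH2. It was highest at 4 h with both antibodies, and it was chosen after its values were seen.

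These differences depend on which of the deposited values are read. A table of the whole series was deposited as well. It has 88 of the 92 member symbols and 81 members at a mean of at least 1 FPKM, and Atp5o, Cox4i1, Ndufb2 and Ndufb8 were not analysed there. In it the median member had 30.0, 30.4 and 55.9 FPKM with IgG in Sham, 4 h and 24 h and 28.1, 33.2 and 48.7 FPKM with anti-EZH2, so that the libraries of 24 h and not of 4 h stood out. The median difference from Sham was -0.022 at 4 h and 0.87 at 24 h with IgG, and 0.22 and 0.75 with anti-EZH2, where all 5036 genes tested in that table had -0.071 and 0.44, and 0.0058 and 0.46. At 24 h 38 of the 81 members were higher than Sham by more than 2-fold with IgG, against 25.4% of all genes, and 31 with anti-EZH2, against 28.4%. Anti-EZH2 minus IgG was -0.046 in Sham, 0.13 at 4 h and -0.15 at 24 h, and limma called 0 of 81 members. Atp5b had 209, 230 and 632 FPKM with IgG and 208, 253 and 468 FPKM with anti-EZH2 in that table. A median above Sham at 4 h with IgG was therefore seen in the tables of single libraries and not in the series table. The same holds for a median below IgG in all anti-EZH2 libraries. In the tables of single libraries the medians of all tested genes lay on the same sides. There the members' share of the summed FPKM was higher with anti-EZH2 at 4 h and 24 h. What differs between the forms was not tested. Calls by limma were 0 members in either form.

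**Figure D5:**
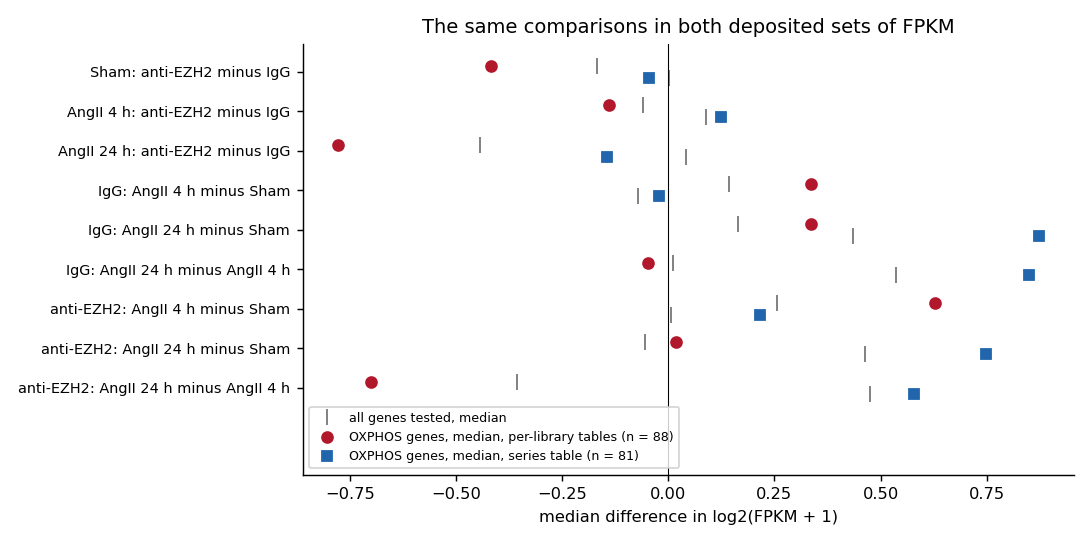
Median difference in log2(FPKM + 1) (x axis) of the OXPHOS genes in 9 comparisons (y axis), from the tables of single libraries (circles, 88 genes) and from the series table (squares, 81 genes), with a grey tick at the median of all genes tested in the same table. The sides differ most for comparisons with the 24 h libraries, such as -0.70 and 0.58 for anti-EZH2 at 24 h minus 4 h.

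Other features held in both forms. In the series table Cox6a2 had between 94.6% and 96.6% of its set, Cox8b between 92.3% and 97.2% and Cox7a1 between 76.7% and 90.1%. Cox7b was lowest in the 24 h anti-EZH2 library there too, with 27.8 FPKM against at least 46.9 FPKM in the other 5. Atp5sl was highest in the 4 h anti-EZH2 library in both, with 14.1 FPKM and 4.22 FPKM. The lower Cox6a1 at 24 h with anti-EZH2 did not hold. In the series table it had 6.20 FPKM in Sham anti-EZH2 and 8.65 FPKM at 24 h.

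Some members share sequence with copies elsewhere in the genome, and their levels are uncertain where reads can be split between copies. Of the 88 members, 51 shared no run of 50 bases of their longest GENCODE M21 transcript with another gene, and 13 shared at least 10% of such runs. Ndufb4 shared 37.0% (with Ndufb4c), Ndufs3 35.8% (with Gm12251), Ndufs5 31.1% (with BC002163) and Cox7c 27.9% (with Gm10012 and Gm12338). Cox7c, a complex IV subunit, had between 83.7 and 156 FPKM over the 6 libraries, and its 2 copies together had between 240 and 372 FPKM, more than Cox7c in every library. In each library between 13 and 26 of the 93 rows had an FPKM outside the interval given beside it, Cox7a1, Cox8b and Ndufa1 in all 6, so these intervals are not given as errors, and the counts with intervals apart among the processing alternatives cover only the members whose values lie inside them.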

How the data were processed

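The 6 RIP-seq libraries were grouped by their titles. Per the submitters' notes reads were mapped with TopHat2 to mm10, and the program that made the values is not given in the sources used here. The authors deposited FPKM, per library and in 1 table of the series, without read numbers, so that the depth behind a value is unknown. FPKM of rows with the same gene identifier were summed, 538 genes whose estimate was not marked OK in a library were left out, as were 4 rows of pseudogenes named -ps, and genes with a mean of at least 1 FPKM were analysed as log2(FPKM + 1), which understates the change of low genes.

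Single library pairs were described by counts past 2-fold and by medians. The antibody effect was tested by limma 3.58.1 (R 4.3.3, trend on the mean, two-sided) with the group as a block, since both libraries of a group come from the same mice. The procedure was tested on simulated data with 200 of 8507 genes changed. At 2-fold it recovered 60 of the 200 (30%), with 5 false calls. At 4-fold it recovered 192, with 13 false calls. A lack of calls therefore does not show a lack of smaller differences. Gene types and transcripts came from GENCODE M21, and tables were handled in Python 3.11.15 with pandas 2.3.3. Named with values were the 5 highest members with IgG, up to 5 in each direction of a comparison past 2-fold, any called by limma, the paralogous sets, subunits with catalytic centres and members under the minimum. Others, such as Ndufb4 and Cox7c, were named after their values were seen. The alternatives were another pseudocount, minimum or fold, centring, FPKM intervals, the series table, no block and pairs left out. A fit on protein-coding genes and the comparison with abundant genes were added after seeing the data. The members and gene lists were chosen with earlier results of these data known. The values of 1 member that the naming rule takes are not reported here.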

Additional observations from a re-analysis of the deposited data

Results flagged for a closer look

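For 2 low members the anti-EZH2 minus IgG difference passed 2-fold in opposite directions in different groups, and whether the groups differ was not tested, since each value comes from 1 library pair. Cox4i2 was at 0.42 in Sham, 1.41 at 4 h and -1.84 at 24 h in log2(FPKM + 1), so that the last 2 lie 3.25 apart. Its levels were 0, 0.362 and 3.99 FPKM with IgG and 0.334, 2.63 and 0.398 FPKM with anti-EZH2. Atp5sl was at -1.25, 1.97 and -1.30, with 3.26 between 4 h and 24 h. It had 5.77, 2.86 and 6.26 FPKM with IgG and 1.86, 14.1 and 1.96 FPKM with anti-EZH2.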

How the results depend on the processing

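No value rests on replicate libraries. The limma test called 0 members under every alternative run, with smallest adjusted p-values of members between 0.547 and 0.880. Without the replicate block, which follows the mice and not a replicate number, limma also called 0 members, and their smallest adjusted p was 0.696. On protein-coding genes only, an alternative chosen after seeing the data, 22 members were lower at an unadjusted p under 0.05, against 7.60% of those genes, where the reported fit had 2, against 4.71%. The median limma estimate was -0.44. With a pair left out (leave-one-out) it lay between -0.59 and -0.28, the latter without the AngII 24 h pair. In the series table it was 0.0065 and so reversed. The cause of this and of the other changes in the series table was not tested.

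For anti-EZH2 minus IgG, 6, 3 and 16 members passed 2-fold in Sham, 4 h and 24 h, against 19.5%, 14.1% and 27.1% of all genes in either direction. A fold of 1.5 gave 26, 8 and 67, against 39.4%, 31.1% and 51.6%, and the values of the series table gave 1, 1 and 3, against 11.7%, 7.72% and 20.7%. Sham moved to 10 with a pseudocount of 0.1 (32.2%), to 1 with the median of all genes set to 0 (18.2%) and to 2 of 65 usable members with FPKM intervals apart (2.91% of all usable genes). At 4 h the count moved to 0 with a minimum of 10 FPKM (13.9%) and, of 57, with intervals apart (1.96%), and at 24 h to 4 with the median set to 0 (21.3%) and to 5 of 69 with intervals apart (4.61%). The medians of the members were -0.046, 0.13 and -0.15 in the series table, reversed at 4 h, and -0.33 at 24 h with the median of all genes set to 0.

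With IgG, 4 members passed 2-fold in each of 4 h minus Sham, 24 h minus Sham and 24 h minus 4 h. Of all genes 18.3%, 19.2% and 15.8% did so, in either direction. A fold of 1.5 gave 20, 17 and 11, against 38.5%, 40.8% and 33.8% of all genes, the values of the series table gave 0, 38 and 35, against 10.2%, 29.6% and 30.004%, and a minimum of 10 FPKM gave 1, 1 and 0, against 20.97%, 20.1% and 14.8%. Intervals apart gave 2 of 63 for 4 h minus Sham (2.67%) and 0 of 63 for 24 h minus 4 h (1.19%). The medians in the series table were -0.022 (reversed), 0.87 and 0.85.

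With anti-EZH2 the numbers were 9, 4 and 10 for the same comparisons, against 18.7%, 21.3% and 22.1% of all genes. They were 48, 10 and 58 at a fold of 1.5, against 41.9%, 41.1% and 44.9% of all genes. In the series table they were 1, 32 and 25, against 10.5%, 35.1% and 31.7%. A pseudocount of 0.1 gave 15 for 4 h minus Sham (31.3%) and 16 for 24 h minus 4 h (35.5%), and the median set to 0 gave 3 (16.7%) and 5 (18.3%). Intervals apart gave 2 of 68 for 24 h minus Sham (2.82%) and 5 of 62 for 24 h minus 4 h (4.60%). The medians in the series table were 0.22, 0.75 and 0.58, the last reversed. With no minimum all 9 counts stayed within 1.5 times.

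The members held 0.429%, 0.589% and 0.558% of the summed FPKM of the IgG libraries of Sham, 4 h and 24 h. In the anti-EZH2 libraries they held 0.356%, 0.624% and 0.620%. Without mitochondrial genes and transcripts under 300 nt they held 3.77%, 4.62% and 4.60% with IgG in Sham, 4 h and 24 h and 3.54%, 4.63% and 4.43% with anti-EZH2. In the series table the share in Sham IgG was 0.722%.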

Other observations

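Of 36 listed assembly factors outside the Ndufaf genes 33 were tested, and their anti-EZH2 minus IgG differences in log2(FPKM + 1) had a median of -0.11 in Sham, -0.08 at 4 h and -0.55 at 24 h. The range at 24 h ran from -1.46 to 1.81, and 9 were lower and 2 higher by more than 2-fold, against 21.7% and 5.35% of all tested genes. A further list held electron carriers, nucleotide carriers and the ATPase inhibitor, and also Coq, Ucp and Vdac genes and Ckmt2. Its 18 tested genes had medians of -0.40, -0.09 and -0.52, and at 24 h ran from -1.22 to 0.32.

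Among the regulators, Polg, the catalytic subunit of the mitochondrial DNA polymerase, had 35.7 FPKM in the 4 h anti-EZH2 library and between 2.06 and 6.01 FPKM in the other 5. Tfam, which packages mitochondrial DNA, had 4.56, 8.10 and 4.08 FPKM with IgG and 4.45, 6.97 and 1.54 FPKM with anti-EZH2. Ppara, a receptor that drives genes of fatty acid oxidation, was higher with anti-EZH2 in each group, at 9.66, 8.65 and 7.26 FPKM against 3.10, 2.40 and 2.26 FPKM. These 3 genes were singled out after their values were seen.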
